A study of Mus musculus with 2 samples.

Results

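The long non-coding RNAs described here are 7 transcripts chosen by name for their nuclear or neural roles: Malat1, Neat1, Miat, Tug1, Rmst, Hotairm1 and Sox2ot. They were matched by Ensembl gene identifier to the loci of 2 RNA-seq libraries, where a locus is either a single gene or a set of genes joined in the deposited rows. Of the 34624 loci, 4 held a member: Tug1 and Neat1 had a locus of their own, Malat1 shared its locus with an identifier that has no symbol in the table of names (ENSMUSG00000092267), and Hotairm1 was in a joined locus that is not analysed here. The results below are therefore those of 3 member loci. The identifiers of Miat, Rmst and Sox2ot matched no row, and these members are not analysed here either. Values of a joined locus cannot be given to 1 of its genes, so each value under the name Malat1 is that of its joined locus.

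The libraries were made from total RNA of untreated, normally developing whole mouse embryos at embryonic day 10.5 from crosses of CBA/Ca × C57Bl/10, with 2 replicates in 1 group and no second condition. Whether each replicate pooled several embryos is not stated, so the spread between replicates may be technical as well as biological. In a whole embryo, a low level in every cell and a high level in few cells cannot be told apart.

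Long non-coding RNAs act as RNA and are not translated. Malat1 gathers in nuclear speckles, which hold splicing factors, and Neat1 is the RNA scaffold on which paraspeckle proteins assemble. Both are transcribed from neighbouring genes on chromosome 19, and their long forms are not polyadenylated in the usual way: RNase P cuts the transcript just before a tRNA-like fold, and an A-rich tract pairs with a pair of U-rich stretches to form a triple helix that protects the new end. Tug1, found in nucleus and cytoplasm and first described in the developing retina, ends in an ordinary poly(A) tail.

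The ends of 3 transcripts that the deposited loci list by identifier are shown because they carry this difference between the members. They are GENCODE M21 sequences (GRCm38, minus strand, chromosome 19 for Malat1 and Neat1 and chromosome 11 for Tug1), written 5′ to 3′ with T for U. Capitals mark the U-rich stretches TTTCTTTT and TTTTGCTTTT and the A-rich tract ending in AAAAAGCAAAA in Malat1 and Neat1, and the poly(A) signal AATAAA in Tug1.
Malat1: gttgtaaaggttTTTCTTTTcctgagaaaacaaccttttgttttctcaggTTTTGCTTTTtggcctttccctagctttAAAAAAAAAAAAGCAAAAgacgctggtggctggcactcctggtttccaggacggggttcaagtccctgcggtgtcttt
Neat1: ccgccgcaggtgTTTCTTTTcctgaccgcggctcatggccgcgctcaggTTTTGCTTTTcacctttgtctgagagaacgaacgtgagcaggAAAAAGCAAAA
Tug1: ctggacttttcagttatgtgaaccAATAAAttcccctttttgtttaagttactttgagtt

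The Malat1 stretch covers bases 6596 to 6751 of a transcript of 6983 bases, so the annotated transcript runs 292 bases past the A-rich tract and includes the tRNA-like part that follows it. The Neat1 stretch is the last 102 bases of the long form of 20771 bases, which the annotation ends at the tract itself. The tract is 18 bases long in Malat1 and 11 in Neat1. On the transcript strand, and with gaps of at most 60 bases, the 3 motifs stood in this order in 2 of 141767 annotated transcripts, the Malat1 and Neat1 forms shown. The motifs overlap no other motif searched and were spelled after these ends had been read, so the count describes the annotation and tests nothing. Taken alone, TTTCTTTT occurred somewhere in 12.3% of transcripts, TTTTGCTTTT in 1.08% and AAAAAGCAAAA in 0.436%. AATAAA occurred in the last 60 bases of 27.1% of transcripts.

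Before the levels, 1 property of the libraries bears on every spread given here. Replicate 2 was the deeper, with 117522171 counts summed over loci, against 18318181 in replicate 1. The replicates also differed in transcripts of the sex chromosomes, and the labels give no sex for either. The joined locus of Tsix and Xist, the RNA that coats the inactive X chromosome of female cells, had 42407 reads (330 RPKM) in replicate 1 and 922 reads (1.15 RPKM) in replicate 2. The 4 Y-linked genes Ddx3y, Eif2s3y, Kdm5d and Uty had 0 to 5 reads each in replicate 1 and 14744 to 15664 each in replicate 2. These 4 genes and Xist were picked after their values were seen. Sex-linked transcripts, depth and replicate therefore cannot be told apart in any difference between these 2 libraries.

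All 3 of these member loci reached 1 RPKM (reads per kilobase, scaled to library size) in both replicates, the minimum used here to call a locus detected, as did 49.4% of all loci and 26.8% of the 2076 lncRNA loci. A lncRNA locus is here one in which each identifier that the annotation classifies is a lncRNA, and 23 of them, that of Malat1 included, also hold an identifier with no class. By this rule Cct6a (270 and 461 RPKM), named for a chaperonin subunit, counts as a lncRNA locus. A lncRNA joined with a gene of another class, such as H19 with its microRNA, does not. Shares and ranks among lncRNA loci rest on this rule. By mean RPKM the order was Malat1, Tug1 and Neat1, and it was the same in each replicate taken alone.

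**Figure D1:**
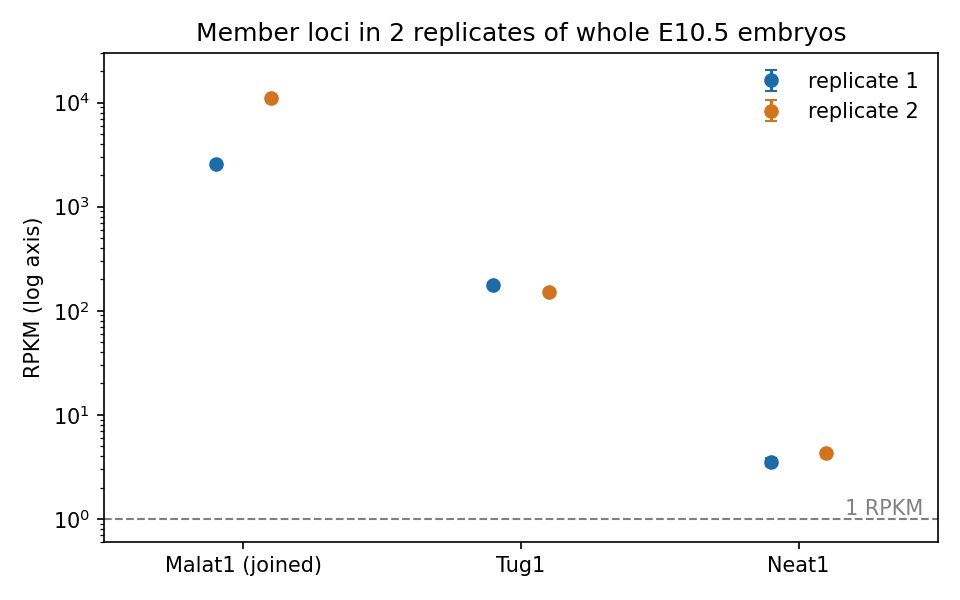
RPKM of the 3 member loci described (log axis) in replicate 1 and replicate 2 of whole E10.5 embryos, with bars for the exact 95% Poisson interval of the read count, mostly smaller than the points. Malat1 lies at 2597 and 10964 RPKM, Tug1 at 176 and 150 and Neat1 at 3.54 and 4.32, and no 2 loci overlap.

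Malat1, the speckle RNA, had 2597 RPKM (168428 reads) in replicate 1 and 10964 RPKM (2801191 reads) in replicate 2, a mean of 6780 ± 5917 RPKM (SD, n = 2). It ranked 5th of all loci in replicate 1 and 18th in replicate 2, and first among the lncRNA loci in both. Its reads made up 0.919% of all counts in replicate 1 (95% Wilson interval 0.915% to 0.924%) and 2.38% in replicate 2 (2.381% to 2.386%). These intervals, like the Poisson intervals, cover counting error only. Among the single-gene loci with a symbol, the nearest to it by level in both replicates, by Euclidean distance on the log2(RPKM + 1) scale, were the antisense locus Gm15564 (2275 and 10541 RPKM) and the translation elongation factor Eef1a1 (3127 and 9436 RPKM).

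Tug1 stood far lower but still among the higher loci. It had 176 RPKM (10418 reads) in replicate 1 and 150 RPKM (50485 reads) in replicate 2, a mean of 163 ± 18.3 RPKM (SD, n = 2), above 96.9% and 95.6% of all loci. It was ninth among the lncRNA loci in each replicate. Its nearest loci by level were the E-protein transcription factor gene Tcf4 (176 and 150 RPKM) and the splicing factor gene Prpf38a (176 and 149 RPKM). Malat1 exceeded Tug1 by 5.03 ± 1.63 on the log2(RPKM + 1) scale (SD, n = 2), where a difference was called beyond the replicate spread when it had the same sign in both replicates and its mean passed 2 SD of the replicate log2 ratio of loci of like level, here 2.43.

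Neat1 was the lowest of the 3. It had 3.54 RPKM in replicate 1, from 499 reads (95% Poisson interval 456 to 545), and 4.32 RPKM in replicate 2, from 2830 reads (2727 to 2936), a mean of 3.93 ± 0.55 RPKM (SD, n = 2). It lay above 56.2% of loci in replicate 1 and 62.3% in replicate 2, and ranked 395th and 214th among the 2076 lncRNA loci. The log2 difference of Tug1 over Neat1 was 5.06 ± 0.32 (SD, n = 2), past the limit of 1.25.

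Malat1 and Neat1 lie next to each other but differed most among the 3 loci. Malat1 exceeded Neat1 by 10.1 ± 1.31 on the log2(RPKM + 1) scale (SD, n = 2), with 9.16 in replicate 1 and 11.01 in replicate 2 and a limit of 2.43. A coding gene next to the pair, Frmd8, had 11.2 RPKM in replicate 1 and 7.71 in replicate 2, and Neat1 against Frmd8 was -1.07 ± 0.50, just past the limit of 1.04. That last difference was -1.42 in replicate 1 but -0.71 in replicate 2, short of the limit in replicate 2 alone, and in CPM (counts per 1000000 of all counts, with no length) it turned round to 1.40. Tug1 exceeded its neighbour Morc2a (65.7 and 53.8 RPKM), a chromatin ATPase gene, by 1.44 ± 0.04 with a limit of 1.25. Its other neighbour, the smooth muscle gene Smtn, shares a locus with other genes and had 23.7 and 11.6 RPKM. The smallest two-sided p that an unpaired exact test of 2 against 2 values allows is 0.333. The loci of a pair were measured in the same 2 libraries, so such a test does not match the design, and none was run.

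**Figure D2:**
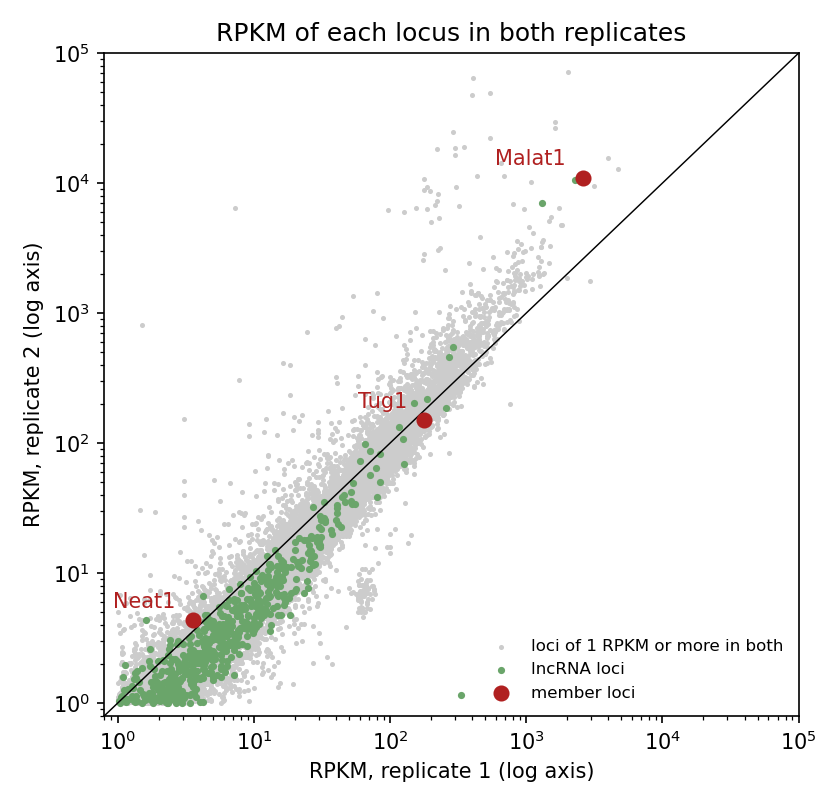
RPKM of each of the 17090 loci that reached 1 RPKM in both replicates, replicate 1 on the horizontal and replicate 2 on the vertical axis (both log), with lncRNA loci in green, 3 member loci in red and the line of equality. Malat1 (2597 and 10964 RPKM) lies above the line at the upper end, while Tug1 (176 and 150) and Neat1 (3.54 and 4.32) lie near it.

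Between the replicates, the members lay on both sides of the other loci of their level. Over all detected loci the median log2 ratio of replicate 2 to replicate 1 was -0.36, and it depended on level: it was -0.55 in the level group of Neat1 and 0.63 in that of Malat1. Malat1 had a log2 ratio of 2.08, which is 1.45 above the median of its group. Neat1 had 0.23, which is 0.77 above. Tug1 had -0.23 and lay 0.32 below its group, as the group median was 0.09. All 3 lay within 2 SD of their group's median, a limit that 4.65% of detected loci passed. For Malat1 that limit was wide: the SD of its group was 1.22, against 0.29 to 0.68 in the other level groups.

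The 4.22-fold higher RPKM of Malat1 in replicate 2 stood among many such differences at that level. In the group of 855 loci of highest level, 86.7% had more RPKM in replicate 2, and 7.84% had a ratio as high as that of Malat1 or higher. Of the 20 loci of highest mean RPKM, 9 were annotated as small nuclear or other small structural RNAs, and these were 16.6-fold to 159-fold higher in replicate 2, among them Rn7sk, the small nuclear RNA that holds back a transcription elongation factor (2034 and 70834 RPKM), chosen after its values were seen. Their part in the Malat1 value was not tested. Over all detected loci, 3.14% were at least 2-fold higher in RPKM in replicate 2 and 11.8% at least 2-fold higher in replicate 1.

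In reads scaled by the library size derived below, the replicates differed less for Malat1 and were nearly equal for Neat1. For these loci the authors' RPKM rest on a length that was not the same in both libraries. Dividing reads by RPKM gives that length times the library size used for scaling. That size can be read from non-coding loci with 1 transcript of known length. It was 13711737 reads in replicate 1 and 77921398 in replicate 2, and 632 of 781 such loci (80.9%) gave these values within 1 percent in each replicate. Both sizes are smaller than the counts summed over loci (18318181 and 117522171). They are therefore not totals of the deposited counts, and the reason is not stated in these sources. The implied length of the Malat1 locus was 4731 bases in replicate 1 and 3279 bases in replicate 2, or 0.693 times that of replicate 1. Of the 7874 detected loci with several transcripts and over 200 reads in replicate 1, 2.54% had a length ratio at or below that of Malat1, and 23.2% had lengths within 1 percent of each other. In RPM, here reads per 1000000 of these library sizes, Malat1 was 12283 in replicate 1 and 35949 in replicate 2, or 2.93-fold higher in replicate 2 in place of 4.22-fold. In the group of highest level, 12.7% of loci had an RPM ratio as high or higher.

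For Neat1 the implied length was 10267 bases in replicate 1 and 8401 in replicate 2. Both lie between the 3004 bases of the short form and the 20771 bases of the long form, the only form that builds paraspeckles. The files do not give the forms separately. In RPM, Neat1 had 36.4 in replicate 1 and 36.3 in replicate 2, which is a ratio of 0.998. For Tug1 the implied length was the same in both, 4312 and 4309 bases, a little under the shortest of its 3 listed transcripts in the later annotation (4720 bases), and the ratio in RPM was 0.853 as in RPKM. In CPM, scaled by the summed counts, the ratios of replicate 2 to replicate 1 were 0.884 for Neat1, 0.755 for Tug1 and 2.59 for Malat1. An RPM at least 2-fold higher in replicate 2, as for Malat1, was seen in 2.86% of detected loci.

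**Figure D3:**
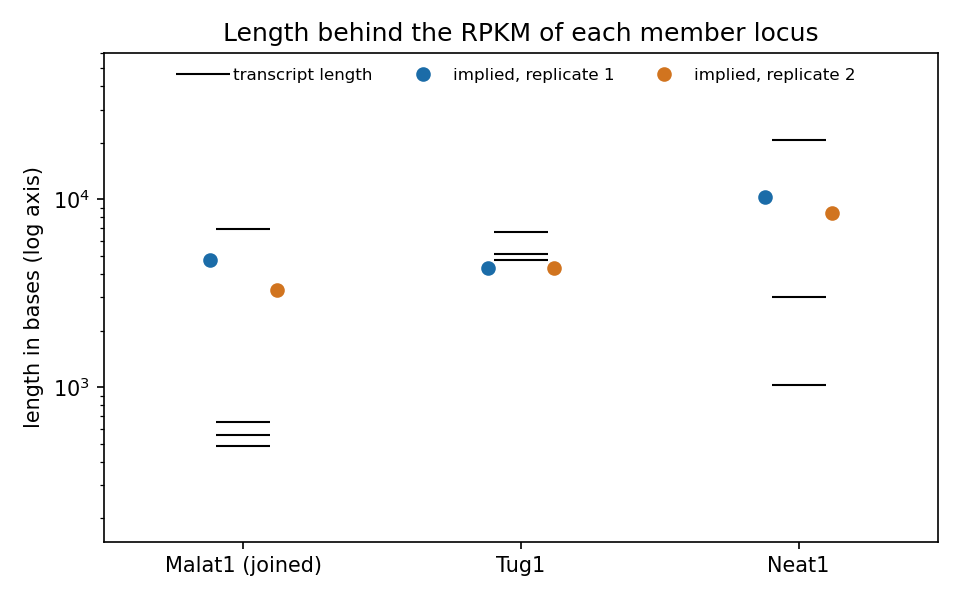
Length in bases (log axis) implied by reads and RPKM for each member locus in replicate 1 and replicate 2, with black bars at the annotated lengths of the transcripts that the locus lists and the later annotation still holds. The 2 points coincide for Tug1 (4312 and 4309 bases) and differ for Malat1 (4731 and 3279) and Neat1 (10267 and 8401).

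**Figure D4:**
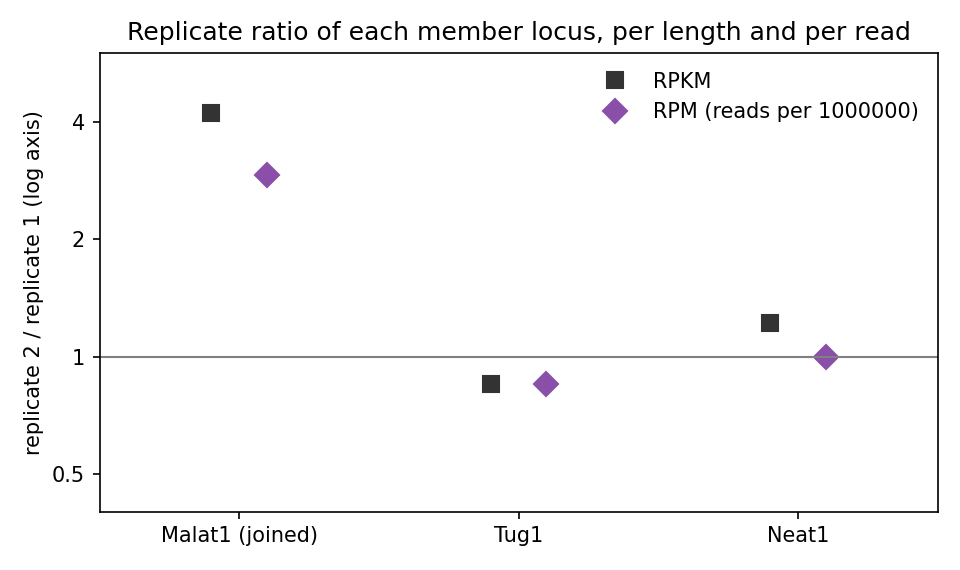
Ratio of replicate 2 to replicate 1 (log axis) for each member locus in RPKM, shown as squares, and in RPM (reads per 1000000 of the implied library size), shown as diamonds, with a line at 1. Malat1 lies at 4.22 in RPKM and 2.93 in RPM, Neat1 at 1.22 and 0.998, and Tug1 at 0.853 in both.

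Transcripts of the proteins that gather on Neat1 were all detected, and in RPKM each stood above Neat1 itself. In reads, with no account of length, Nudt21 (294 and 2090) was below Neat1 (499 and 2830). All 14 paraspeckle protein loci passed 1 RPKM in each replicate, as did 49.4% of all loci. The median of the 14 was 203 and 201 RPKM. Sfpq, in a joined locus (1478 and 2419 RPKM), the joined locus of Ewsr1 (806 and 941 RPKM) and Hnrnpk (261 and 768 RPKM) were highest by mean RPKM, and Nudt21 was lowest (25.8 and 32.3 RPKM). In replicate 1 alone, Tardbp (421 RPKM), Nono (415 RPKM) and Hnrnph3 (365 RPKM) were above Hnrnpk. Sfpq and Nono are the paired RNA-binding proteins of the paraspeckle core. Sfpq exceeded Neat1 by 8.59 ± 0.34 on the log2 scale and Nono (415 and 574 RPKM) by 6.64 ± 0.17 (SD, n = 2), with a limit of 2.43 for each. Hnrnpk, which acts in choosing the Neat1 form, was higher in replicate 2 by 1.55 on the log2 scale.

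The splicing factors and scaffold proteins of the speckles where Malat1 gathers were higher still as a list. All 18 loci reached the minimum, as did 49.4% of all loci, with a median of 304 and 333 RPKM for the list. The splicing factor Srsf1, in a joined locus (1215 and 2084 RPKM), Srsf3 (529 and 929 RPKM) and the speckle core protein Son (592 and 591 RPKM) were highest by mean RPKM, although Bclaf1 (613 RPKM) was above Son in replicate 2, and Sart1 was lowest (80.9 and 72.0 RPKM). Malat1 had more RPKM than any of these 18 loci in both replicates.

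Genes for the processing and binding of the Malat1 and Neat1 ends were lower as a list than the paraspeckle and speckle proteins. Of 11 loci, 10 were detected, against 49.4% of all loci, and the median of the list was 32.9 and 21.9 RPKM. For comparison, the median was 21.6 and 15.7 RPKM over detected loci and 1.76 and 1.00 RPKM over all loci. The RNase P subunits Pop5 (109 and 110 RPKM) and Pop4 (47.3 and 35.9 RPKM) and Mettl16, which binds the Malat1 triple helix (97.7 and 69.8 RPKM), were highest. Rpp25 was lowest, with 0.496 RPKM from 5 reads in replicate 1 and 0.454 RPKM from 26 reads in replicate 2. The RNA part of RNase P, Rpph1, had 869 and 3090 RPKM.

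**Figure D5:**
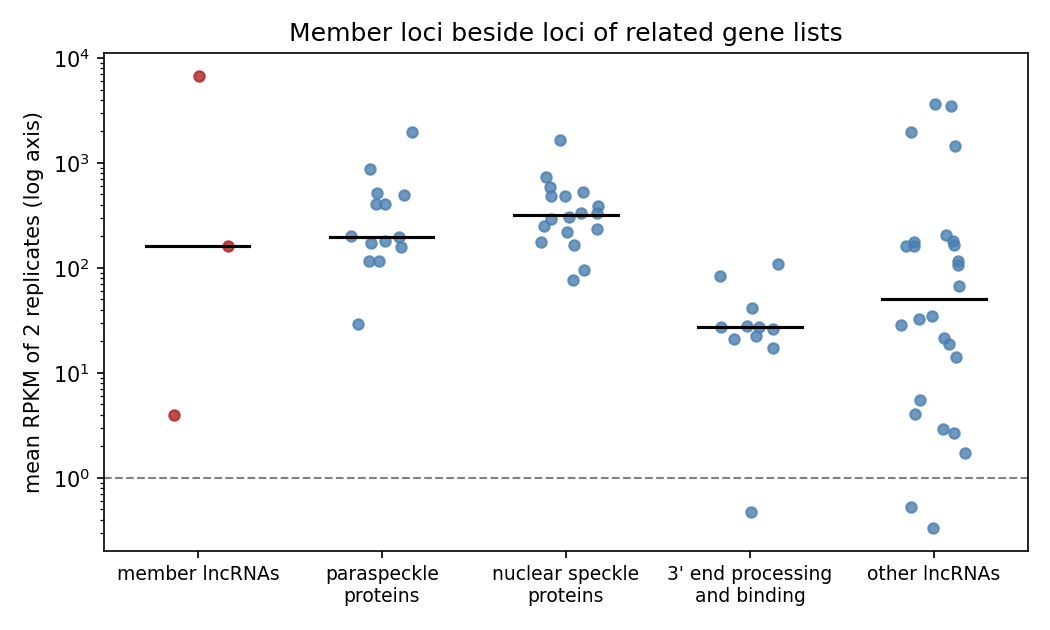
Mean RPKM of both replicates (log axis) for each locus of the members and of 4 related lists, each point 1 locus, with the list's median as a bar and a dashed line at 1 RPKM. Neat1, the lowest red point at 3.93 RPKM, lies under all 14 paraspeckle protein loci, and Malat1 at 6780 RPKM lies above every other point.

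Among other named lncRNAs, 24 of 26 loci reached the minimum, with a median of 62.7 and 36.2 RPKM. The share was 26.8% of the lncRNA loci defined above and 49.4% of all loci. Of the 45 symbols listed, 27 had a locus, and 12 of the 26 loci were joined with other genes. The highest by mean RPKM were Rmrp (959 and 6288 RPKM), joined with Ccdc107, the imprinted H19 (1526 and 5446 RPKM), joined with its own microRNA, and Rpph1, and the lowest was the joined locus of Pax6os1 (0.249 and 0.412 RPKM). In replicate 1 alone, the joined locus of Gas5 (1260 RPKM) was above Rmrp and Rpph1. Malat1 was above each of the 26 in both replicates, and 21 of the 26 had a higher mean RPKM than Neat1. Some of these had fewer reads than Neat1 in both replicates. As for Malat1, the length behind the H19 value was shorter in replicate 2, and in RPM H19 was higher there by 1.37 on the log2 scale rather than by 1.84. Hotair, transcribed from the HoxC cluster, had 1.87 and 1.61 RPKM, and Hottip, transcribed from the HoxA cluster, had 0.475 and 0.572 RPKM. These values of Hotair and Hottip were chosen after they were seen.

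Transcripts of protein partners and regulators of the neural members, and markers of neural progenitors and young neurons, were detected, and 4 of 9 glial marker loci were. All 11 measured loci of the partner list were detected (median 105 and 124 RPKM), led by Hnrnpa2b1 (816 and 2027 RPKM), the Polycomb enzyme Ezh2 (691 and 745 RPKM, joined) and the splicing factor Sf1 (394 and 331 RPKM, joined). Sox2, which lies within the Sox2ot gene and whose protein binds Rmst, had 82.0 and 90.5 RPKM. Of the neural progenitor markers all 8 loci were detected, with a median of 56.2 and 57.3 RPKM, led by Nes (284 and 318), Fabp7 (203 and 277) and Sox2, with Sox3 lowest (6.53 and 3.24). All 9 early neuron loci were detected (median 68.8 and 75.6 RPKM), the highest being the joined loci of Nefl and Nefm (343 and 373) and of Map2 (197 and 189) and then Tubb3 (146 and 164), and the lowest Elavl3 (14.6 and 9.01). The 4 of 9 glial marker loci detected are a share near the 49.4% of all loci, and 7 of 9 reached 1 RPKM in replicate 1 alone or 0.3 RPKM in both. The glial median was 1.73 and 0.976 RPKM, with Sox10 (10.1 and 7.44) and Mbp (8.15 and 4.84) among the highest and Olig1 lowest (0.164 and 0.101).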

How the data were processed

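Total RNA of whole embryos was sequenced, and reads were aligned with TopHat to mm9, per the submitters' processing notes. The aligner's version, the read counter, the use of strand and any selection of poly(A) RNA are not stated in these sources. Per the file headers, each row of the deposited files holds the authors' RPKM and a whole-number read count. The 34676 rows were summed by set of identifiers to 34624 loci, of which 2473 were joined. A table of names matched 32642 of 37681 identifiers (86.6%). Classes, lengths and sequences came from GENCODE M21 on GRCm38, another build, so no coordinates are given.

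Loci were called detected at 1 RPKM in both replicates. Log ratios used a pseudocount of 1, which understates differences of low loci, and level groups were 20 equal parts of the detected loci. With 1 group, no count test applies. CPM, made from the deposited counts and their total, was an alternative. The members, lists and pairs were chosen with earlier results of these data known. Of 19 pairs chosen, 8 had separate loci, and all 8 differed beyond the limit. That limit comes from the spread of single loci between replicates, so loci of unlike level can readily pass it. The share of other pairs of loci that pass it was not computed, and the count of 8 tests nothing. Named genes were the members, their nearest loci on the chromosome and by level, the genes of these pairs, and the 3 highest and the lowest of each list, and others are said to be chosen later. Tardbp, Hnrnph3, Bclaf1, Gas5 and Cct6a were named after their values were seen. Some genes that this rule names, and 1 of the lists, are not reported here. The ratio code was tested on simulated data with a smaller replicate spread than the detected loci had. The interval code was checked only for limits on either side of each count, not for coverage. Python 3.11.15, pandas 2.3.3, numpy 2.4.6 and scipy 1.17.1 were used.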

Additional observations from a re-analysis of the deposited data

How the results depend on the processing

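The calls were recomputed with other minimums, pseudocounts, scalings and limits, on single-identifier loci, in RPM (chosen after seeing the data) and without each replicate. Of 145 recomputed values, 136 were counted as the same, by a loose rule. These include the called pairs, 8 in the main setting, 6 at 3 SD and 7 without replicate 1. They also include other lncRNA loci detected, 24 against 20 at 3 RPKM, and the Malat1 log2 ratio, 2.08 against 1.37 in CPM. The small replicate log2 ratios changed sign for Neat1 in CPM (-0.17) and RPM (-0.0028) and for Tug1 with the replicates scaled to the same median (0.23). With single-identifier loci only, 2 member loci (Tug1 and Neat1), 13 other lncRNA loci and 6 partner loci were detected, since the joined loci are left out. At 0.3 RPKM, 7 glial loci were detected in place of 4, and with each replicate left out the count was 4 and 7. Neat1 against Frmd8 reversed to 1.40 in CPM, which takes no account of length, and was not called at 3 SD or without replicate 1 (-0.71). Tug1 over Morc2a was not called at 3 SD. A signal of 0 reads allowed up to 0.164 CPM in replicate 1 and 0.0255 CPM in replicate 2. No paired comparison of conditions was possible because the series holds 1 group.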
